A study of Mus musculus with 70 samples.

Results

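The genes described here encode the proteins of the mitochondrial ribosome in mouse brain. They were chosen by name and level: protein-coding genes whose symbol begins with Mrpl or Mrps followed by a digit, with a mean of at least 1 CPM, the usual measure of counts scaled to library size, over the 70 libraries. This rule gave 76 members of the 38293 genes in the files. Of the 77 symbols that matched, Mrpl53 was outside at a mean of 0.0799 CPM, and the members nearest the limit were Mrpl23 at 1.26 CPM and Mrps36 at 1.53 CPM. The 76 members lay on 17 chromosomes, and all of them passed the low-count filter of each fit.

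RNA of cerebral cortex and striatum was sequenced from 5 groups of mice, with 7 libraries in each group and tissue. WT were wild types. MMI were wild-type male C57BL/6J mice made hypothyroid by 0.02% methimazole, which blocks hormone synthesis, and 1% potassium perchlorate, which blocks iodide uptake, which the dams drank in their water between embryonic day 9 and postnatal day 21. Mice of the MctDio KO line lacked a pair of genes, among them Dio2, whose enzyme converts T4 to the active hormone T3. Mice of the MctOatp KO line, also a double knockout, lacked Slco1c1, a T4 transporter, and WTa were the wild types labelled for that line. The hypothyroid and knockout mice were taken on postnatal days 21 to 23. No age is given for the wild-type groups and no sex for groups other than MMI. Both deletions of a line are carried by all its mice, so the part of either gene cannot be told apart.

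The mitochondrial ribosome translates the few proteins that mitochondrial DNA encodes, all of them subunits of the respiratory chain and ATP synthase. Its ribosomal RNAs are made inside the mitochondrion, but all of its proteins are encoded in the nucleus, made in the cytosol and imported. Many descend from bacterial ribosomal proteins and the others are found only in mitochondria. Thyroid hormone is known to raise mitochondrial biogenesis in several tissues, in part through the coactivator encoded by Ppargc1a and the nuclear receptor encoded by Esrra.

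By subunit, 49 members belong to the large subunit, 29 with a bacterial homologue and 20 specific to mitochondria. Another 26 belong to the small subunit, 16 with a bacterial homologue and 10 specific to mitochondria. In spite of their names, Mrps18a and Mrps30 encode large-subunit proteins. Mrps36 was counted in neither subunit, since its product is known as a component of the oxoglutarate dehydrogenase complex.

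Promoter sequences are shown because members spread over many chromosomes were called lower in the models described below. RefSeq promoters (GRCm38.p6) were matched for 67 of the 76 members, each 250 bases before and 50 bases after the first listed start. Both windows printed next, the 250 bases before the start of genes called lower in 5 and in 4 of the 6 comparisons, hold none of the motifs searched and no annotated exon. The first is chr8:71464676-71464925 on the plus strand and the second chr10:95501950-95502199 on the minus strand.
Mrpl34: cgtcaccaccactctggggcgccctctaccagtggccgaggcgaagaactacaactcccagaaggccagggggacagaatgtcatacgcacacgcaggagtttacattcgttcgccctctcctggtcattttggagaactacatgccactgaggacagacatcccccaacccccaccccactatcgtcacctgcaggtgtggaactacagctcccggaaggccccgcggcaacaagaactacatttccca
Mrpl42: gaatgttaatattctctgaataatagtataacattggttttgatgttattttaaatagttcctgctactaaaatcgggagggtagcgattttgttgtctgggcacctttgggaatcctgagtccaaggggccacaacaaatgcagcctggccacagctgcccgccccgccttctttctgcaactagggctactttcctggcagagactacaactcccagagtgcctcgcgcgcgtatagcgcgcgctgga

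Motifs of 3 factors known to act on nuclear genes of mitochondrial proteins were searched on both strands. NRF1 was searched as the core CGCATGCG, the ETS family, to which GABPA belongs, as CCGGAAGT, and YY1 as AAGATGGC. The NRF1 letters were found in 7 member promoters (10.4%, against 3.66% of 11205 protein-coding genes tested), the ETS letters in 10 (14.9% against 7.65%) and the YY1 letters in 12 (17.9% against 4.3%). The YY1 letters hold ATG, and 8 of these 12 matches lay after the start (11.9% against 2.39%), where they may include a start codon, while 4 lay before it (5.97% against 1.87%). At least 1 motif was found in 27 promoters (40.3% against 14.7%). The median GC content was 58.3% in members and 60.7% in all genes. A match describes the letters in the window and does not show binding.

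For the 19 members called lower in at least 3 of the 6 comparisons, matches are shown as stretches of 30 bases, with the motif in capitals. No match was found in Mrpl12, Mrpl20, Mrpl28, Mrpl34, Mrpl45, Mrpl46, Mrpl48 and Mrps21. Members of this set not named in this paragraph had no matched promoter. Whether matches go with the falls was not tested. Mrpl18 holds an ETS match 240 bases before the start, at chr17:12916312-12916341 on the minus strand, in a stretch that the GENCODE annotation counts as exon. Of the 250 bases before the start, all are annotated as exon in Mrpl18, Mrpl51 and Mrps7, 149 in Mrpl36 and 0 in Mrpl42. Mrpl36 holds a YY1 match on the reverse strand 30 bases before the start (chr13:73330968-73330997, plus strand). Mrpl42 holds a YY1 match from base 28 of the transcript (chr10:95501904-95501933, minus strand). Mrpl51 holds an ETS match 90 bases before the start (chr6:125192099-125192128, plus strand). Mrps7 holds a YY1 match from base 19 of the transcript (chr11:115604147-115604176, plus strand).
Mrpl18: actgaaaacgCCGGAAGTagggggctgcgg
Mrpl36: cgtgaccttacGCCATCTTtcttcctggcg
Mrpl42: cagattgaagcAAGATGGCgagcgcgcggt
Mrpl51: caggggctaaaCCGGAAGTatttgactgga
Mrps7: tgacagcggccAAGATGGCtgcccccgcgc

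Assigned counts ran from 7802957 to 22485839 per library. Of the 70 libraries 3 stood apart and were left out of the fits reported first, a choice made with earlier results of these data known. A position between the tissues was computed from 757 genes, 0 being the mean of cortex controls and 1 that of striatum controls. Cortex MctOatp KO 7, as labelled, had position 0.92, and cortex libraries kept had -0.11 to 0.10. Striatum MctOatp KO 7, as labelled, had position -0.05, and striatum libraries kept had 0.81 to 1.09. Cortex MctOatp KO 1 had 39.7% of its alignments at more than 1 place, while the 33 cortex libraries kept had 27.8% to 30.5%. Its share in no gene was 5.36%, against 8.13% to 11.66% in the cortex libraries kept. Its members summed to 4187 CPM, but this sum is the outcome studied here and cannot serve as a ground for leaving the library out. These libraries change many of the cortex results, so the members called in each comparison are counted again with all libraries as labelled. Shares of all genes called are given for the fits reported first. For other settings they are given only as labelled, in hypothyroid cortex and in the tally over the model comparisons. Other counts under such settings cannot be told apart from a shift in the calls of all genes. The targeted genes were lower in their lines. The fitted log2 change of Dio2 in MctDio KO was -4.83 ± 0.13 (SE) in cortex (adjusted p = 5.38e-24) and -4.44 ± 0.12 in striatum (adjusted p = 4.81e-25). The change of Slco1c1 in MctOatp KO was -0.90 ± 0.11 in cortex (adjusted p = 1.60e-07) and -0.89 ± 0.09 in striatum (adjusted p = 1.41e-09), at 35.8 to 51.4 CPM in the kept libraries of both tissues against 73.8 to 93.6 CPM in cortex and 78.1 to 91.3 CPM in striatum in WTa. Counts over a whole gene do not show which part of it is deleted.

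The mean of a member over all libraries ran from 1.26 to 53.6 CPM, with a median of 21.3 CPM. Levels of different genes were compared per kilobase of exon. In cortex WT the highest were Mrpl41 (40.7 CPM per kb), Mrpl28 (29.1) and Mrps12 (27.1), which encodes the homologue of the bacterial protein that guards decoding accuracy. The lowest were Mrpl23 (0.201 CPM per kb), Mrps36 (1.30) and Mrps35 (1.63). The paralogues Mrps18a, Mrps18b and Mrps18c encode related proteins that take up different places in the ribosome. Per kilobase in cortex WT, Mrps18a (9.18 CPM per kb) and Mrps18c (8.73) lay close together and Mrps18b (3.28) lower.

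In cortex of hypothyroid pups most of the change was downward and small. Of the 76 members 26 were called lower and 2 higher than in WT, where called means an adjusted p under 0.05 over all genes tested. Over the 16415 genes tested, 20.0% were called lower and 19.9% higher. The median log2 change was -0.10 over the members and 0.01 over all genes, 57 members lay below 0, and single members ranged from -0.42 to 0.59. With all libraries as labelled the common spread was larger (a coefficient of variation of 0.169 against 0.0864), 1 member was called lower and 1 higher, and 9.74% and 10.95% of all genes were. Without only the libraries numbered 7 the counts were 2 lower and 1 higher.

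**Figure D1:**
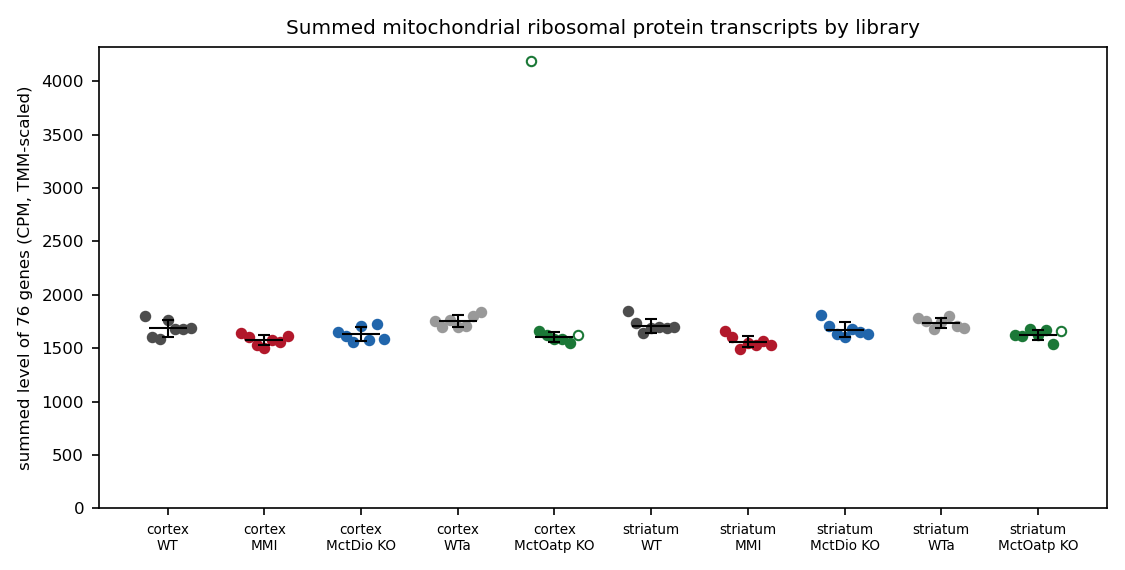
Summed level of the 76 members in each library (CPM, TMM-scaled), by group and tissue; bars give mean ± SD over the libraries kept and open circles the libraries left out. Hypothyroid libraries lie from 1503 to 1638 CPM in cortex and from 1495 to 1665 CPM in striatum, and 1 library left out lies at 4187 CPM.

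The sum of the 76 members, given as a description, was 1685 ± 77.9 CPM (SD, n = 7) in cortex WT, from 1586 to 1797, and 1575 ± 49.1 CPM in cortex MMI, from 1503 to 1638. In striatum it was 1712 ± 64.9 CPM in WT, from 1638 to 1845, and 1563 ± 55.5 CPM in MMI, from 1495 to 1665. The ranges of WT and MMI overlapped in both tissues. The sum in MctDio KO was 1630 ± 64.8 CPM in cortex and 1674 ± 67.7 CPM in striatum, between the means of WT and MMI. In MctOatp KO it was 1602 ± 45.2 CPM (n = 5) against 1752 ± 55.7 CPM in WTa in cortex, and 1624 ± 48.9 CPM (n = 6) against 1738 ± 48.0 CPM in striatum. Each range of MctOatp KO ended below the lowest WTa library of its tissue, at 1696 and 1678 CPM. With all libraries as labelled the cortex sum of MctOatp KO was 1975 ± 976 CPM. In bulk tissue, fewer cells of a type and less RNA per cell cannot be told apart.

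Among large-subunit genes of hypothyroid cortex, 19 of 49 were called lower and 2 higher (median log2 change -0.08). Mrpl18 (ENSMUSG00000057388, GRCm38 chromosome 17, 12911349 to 12916345, minus strand), a homologue of a bacterial large-subunit protein, ranged from 12.7 to 16.7 CPM in WT with a median of 15.6, and from 10.9 to 13.5 in MMI with a median of 11.4. The groups overlapped at their edges, and the log2 change was -0.36 ± 0.07 (SE, adjusted p = 3.30e-05). Of its exon bases 10.1% are shared with Tcp1 on the opposite strand, and these unstranded counts cannot separate the pair there. Mrpl34 (ENSMUSG00000034880, chromosome 8, 71464959 to 71465747, plus strand), which also has a bacterial homologue, ranged from 14.5 to 20.3 CPM in WT with a median of 15.9, and from 10.2 to 13.8 in MMI with a median of 12.3. No hypothyroid library reached the lowest WT library, and the change was -0.42 ± 0.08 (adjusted p = 3.33e-05). Mrpl3, with a bacterial homologue, went from 50.7 to 57.4 CPM in WT (median 54.0) to 45.9 to 47.9 CPM in MMI (median 46.9), again with no overlap (-0.19 ± 0.04, adjusted p = 0.000266). Mrpl12, the stalk protein that recruits translation factors to the ribosome, fell by 0.29 on the log2 scale (adjusted p = 0.000294).

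Both rises were in the large subunit. Mrpl23, the lowest member per kilobase, ranged from 0.730 to 1.31 CPM in WT and from 0.972 to 1.83 in MMI (0.59 ± 0.21, adjusted p = 0.0239). Untreated WTa had a like level of Mrpl23 in cortex, at a mean of 1.476 CPM beside 1.489 in MMI. Its difference from WT was 0.56 and was not called (adjusted p = 0.1115), so this rise is not particular to hypothyroid mice. Mrpl10, which encodes the base of the stalk, ranged from 29.4 to 35.5 CPM in WT and from 34.2 to 39.4 in MMI (0.12 ± 0.05, adjusted p = 0.0457). The groups overlapped for both. Of the exon bases of Mrpl10, 14.1% are shared with another annotated gene.

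Of the 26 small-subunit genes, 7 were called lower in hypothyroid cortex and none higher (median -0.12). Mrps21 (ENSMUSG00000054312, chromosome 3, 95862634 to 95871519, minus strand), a homologue of a bacterial small-subunit protein, ranged from 14.5 to 19.6 CPM in WT and from 10.99 to 15.6 in MMI (-0.32 ± 0.08, adjusted p = 0.000566). Mrps28 and Mrps33 had the largest falls of the subunit, by 0.39 and 0.36. Of the members with a bacterial homologue 11 of 29 were lower in the large and 5 of 16 in the small subunit, and of those specific to mitochondria 8 of 20 and 2 of 10. No test was made of these counts against each other. As labelled, 1 large-subunit gene was lower and 1 higher, and no small-subunit gene was called.

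In striatum of hypothyroid pups 30 members were called lower and 1 higher, where 19.7% of 16325 genes were lower and 19.0% higher. The median change was -0.13 against 0.01 over all genes, and 64 members lay below 0. As labelled, 27 were lower and 1 higher. This count depended on scaling: by library size alone 11 were lower and 6 higher, with medians of -0.03 for the members and 0.11 for all genes, so the members then lay below the other genes but near 0. The shares of all genes called in striatum under these settings are not given here.

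In the large subunit 21 of 49 genes were lower in hypothyroid striatum and none higher. Mrpl36 (ENSMUSG00000021607, chromosome 13, 73328513 to 73332178, plus strand), a homologue of one of the smallest bacterial large-subunit proteins, ranged from 19.0 to 21.9 CPM in WT (median 20.5) and from 13.8 to 16.4 in MMI (median 15.4), with no overlap (-0.41 ± 0.06, adjusted p = 1.41e-06). Mrpl12 (ENSMUSG00000039640, chromosome 11, 120484613 to 120489065, plus strand) ranged from 22.4 to 27.9 CPM in WT (median 25.5) and from 17.0 to 21.7 in MMI (median 19.0), also apart (-0.39 ± 0.06, adjusted p = 1.74e-06). Mrpl20 (ENSMUSG00000029066, chromosome 4, 155802878 to 155809975, plus strand), with a bacterial homologue, ranged from 38.9 to 51.1 CPM in WT (median 42.4) and from 30.2 to 35.4 in MMI (median 33.3). These groups did not overlap either (-0.39 ± 0.07, adjusted p = 2.61e-05), and in cortex, from 40.1 to 47.3 against 31.3 to 39.0 CPM, they did not overlap as well (-0.24 ± 0.06, adjusted p = 0.00123). Mrpl34 fell by 0.38 (adjusted p = 0.000108) and Mrpl18 by 0.28 (adjusted p = 0.000541).

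In the small subunit 9 of 26 were lower in hypothyroid striatum. As labelled the counts were 19 in the large and 8 in the small subunit. Mrps21 ranged from 18.7 to 23.9 CPM in WT and from 14.8 to 19.9 in MMI, with some overlap (-0.36 ± 0.08, adjusted p = 0.000223). Mrps14, with a bacterial homologue, fell by 0.29 (adjusted p = 7.35e-05) and Mrps12 by 0.30 (adjusted p = 0.00112). Mrps5, the homologue of another bacterial small-subunit protein, went the other way, from 25.5 to 30.6 CPM in WT to 29.0 to 32.8 in MMI (0.13 ± 0.05, adjusted p = 0.0426). In cortex its change was 0.02. Untreated WTa was also higher than WT in Mrps5 in striatum (0.17, adjusted p = 0.0281).

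**Figure D2:**
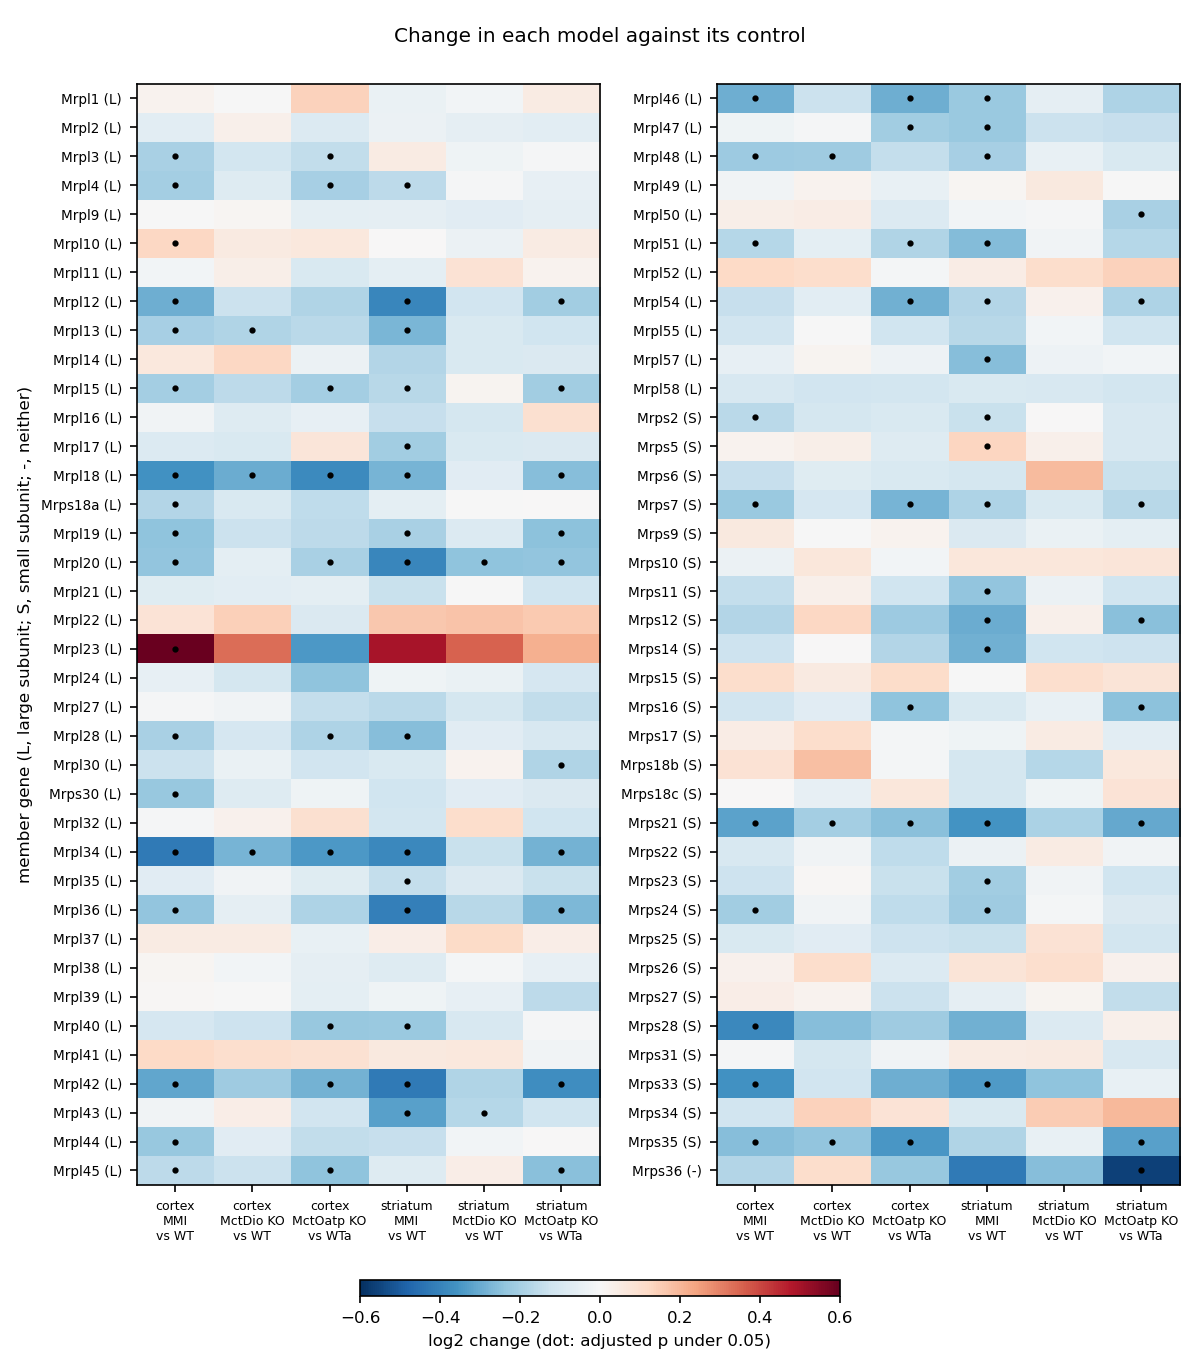
Log2 change of each of the 76 members (rows; L large subunit, S small subunit) in the 3 models against their controls in cortex and striatum (columns); colour gives the log2 change from -0.6 to 0.6 and a dot an adjusted p under 0.05. Dots sit almost all on blue cells, 26 of them in hypothyroid cortex and 30 in hypothyroid striatum, and the MctDio KO columns hold 6 and 2.

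The members that fell were in part the same in both tissues. Of the 26 lower in hypothyroid cortex and the 30 in striatum, 19 were shared, 73.1% of the first list and 63.3% of the second. The matching share over all genes is not given here, so the overlap cannot be read as particular to the members. When the change itself was compared between tissues, 1 member had a higher and 1 a lower change in striatum than in cortex, where 3.36% and 4.36% of 16977 genes did. As labelled, 1 was higher and none lower. Mrpl3 fell in cortex, and in striatum its change was 0.05 ± 0.04 (adjusted p = 0.347). There it ranged from 51.1 to 59.9 CPM in WT and from 52.7 to 57.5 in MMI, and the changes differed by 0.24 ± 0.06 (adjusted p = 0.00224). Mrpl43, specific to mitochondria, had the opposite pattern. In cortex it ranged from 27.8 to 33.8 CPM in WT and from 28.0 to 32.4 in MMI, in striatum from 30.5 to 39.6 and from 24.9 to 32.0, and the changes differed by -0.31 ± 0.08 (adjusted p = 0.00399; as labelled, adjusted p = 0.525). Of the exon bases of Mrpl43, 33.4% are shared with Twnk on the opposite strand, the helicase gene of mitochondrial DNA, which itself fell by 0.25 in striatum.

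**Figure D3:**
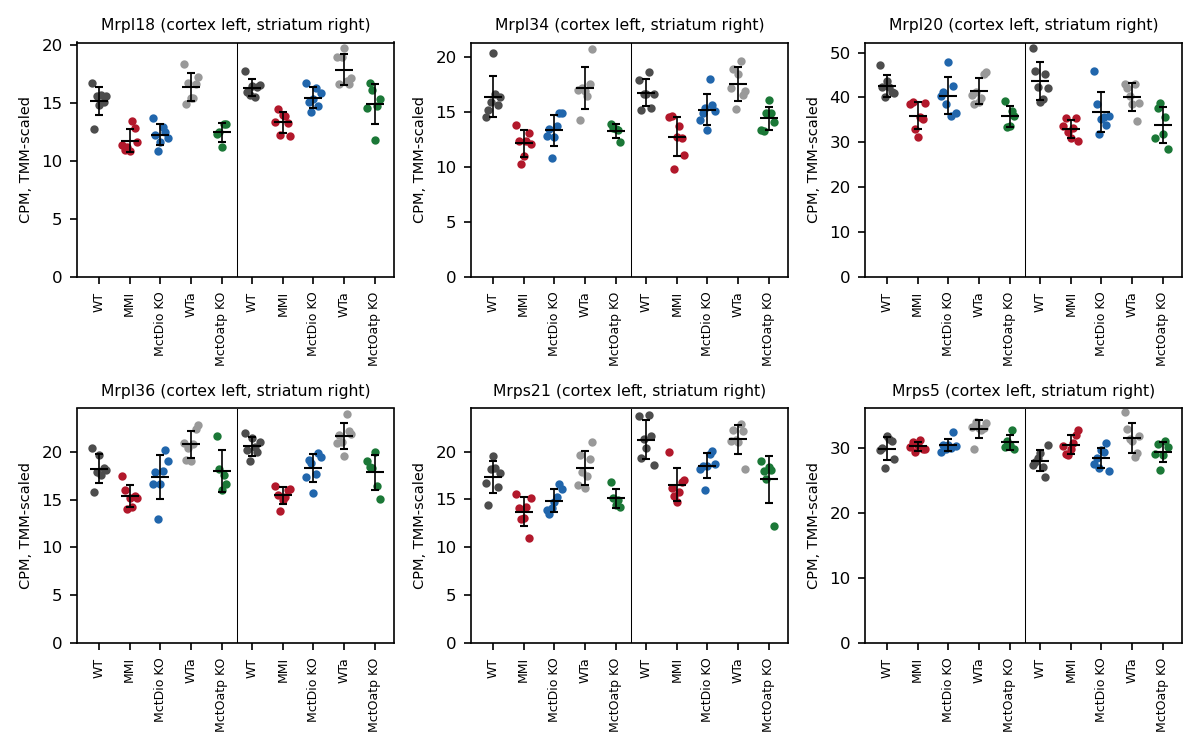
Level (CPM, TMM-scaled) of Mrpl18, Mrpl34, Mrpl20, Mrpl36, Mrps21 and Mrps5 in each library kept, by group, cortex left and striatum right. Bars give mean ± SD, and the libraries left out are not shown. In striatum, Mrpl36 lies from 13.8 to 16.4 CPM in MMI and from 19.0 to 21.9 CPM in WT.

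In MctOatp KO 18 members were called lower and none higher in each tissue. In cortex, 11.6% of all genes were lower and 10.1% higher, the members' median change was -0.12 against 0.01 over all genes, and 67 members lay below 0. This cortex result rested on the libraries left out. As labelled, no member was called (13 had an unadjusted p under 0.05, and DESeq2 on the libraries kept gave 20 calls) and the median was 0.11, above 0. Without only the library numbered 7, 3 were called higher and none lower, with a median of 0.15. Of the 5 libraries kept, leaving out replicate 4 left 8 calls and leaving out any other left 13 to 16. In striatum, 13.0% of all genes were lower and 12.1% higher, the median was -0.10 against 0.01, and 14 members were lower as labelled. By library size alone the counts were 6 lower in cortex, and 8 lower and 1 higher in striatum.

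The leading fall in cortex of MctOatp KO was again Mrpl18. It ranged from 11.2 to 13.2 CPM with a median of 12.5 in the 5 knockout libraries, and from 15.0 to 18.4 with a median of 16.6 in the 7 WTa libraries. The groups were apart (-0.38 ± 0.07, adjusted p = 0.000106). With all libraries as labelled its change was 0.09, above 0. Mrpl34 ranged from 12.2 to 13.9 CPM against 14.3 to 20.7 (-0.34 ± 0.08, adjusted p = 0.00239). Mrps7, the homologue of a protein that starts assembly of the head of the small subunit in bacteria, ranged from 31.1 to 35.6 CPM against 35.3 to 47.0 (-0.28 ± 0.07, adjusted p = 0.00182). Mrps35, specific to mitochondria, ranged from 11 to 13.2 CPM against 14.1 to 18.2 (-0.35 ± 0.09, adjusted p = 0.00242). Mrpl34 and Mrps35 did not overlap with WTa and Mrps7 did at the edge. By subunit, 14 of 49 large-subunit and 4 of 26 small-subunit genes were lower, and as labelled none was.

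In striatum of MctOatp KO 12 of 49 large-subunit and 5 of 26 small-subunit genes were lower, and Mrps36. As labelled the counts were 11 and 3. Mrpl36 ranged from 15.0 to 20.0 CPM against 19.6 to 23.98 in WTa (-0.27 ± 0.07, adjusted p = 0.00192). Mrpl42 ranged from 11.1 to 15.4 CPM against 15.2 to 21.5 (-0.37 ± 0.09, adjusted p = 0.00299). Mrpl18 ranged from 11.8 to 16.8 CPM against 16.6 to 19.8 (-0.26 ± 0.07, adjusted p = 0.00391). In each of these only the edges of the groups overlapped. Mrps36 had the largest fall, by 0.56 ± 0.21 (adjusted p = 0.0447), at 0.742 to 2.10 CPM against 1.21 to 2.13, ranges that overlapped widely. Of the 18 members lower in cortex and the 18 in striatum 11 were shared, 61.1% of each, and the matching share over all genes is again not given. No member's change differed between the tissues by the test of the difference (2.96% of all genes did; 4 members had an unadjusted p under 0.05, and DESeq2 called 0).

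In MctDio KO few members moved. In cortex 6 were called lower and none higher, where the shares over all genes were 11.8% lower and 11.1% higher, and the median was -0.03 against 0.01. As labelled 0 were called, with 2 at an unadjusted p under 0.05, and DESeq2 on the libraries kept gave 8 calls. These 6 were Mrpl18, Mrpl34, Mrpl48, Mrps35, Mrpl13 and Mrps21. Mrpl18 ranged from 10.8 to 13.7 CPM with a median of 12.3, against 12.7 to 16.7 in WT (-0.30 ± 0.07, adjusted p = 0.00107). Mrpl34 ranged from 10.8 to 14.9 CPM against 14.5 to 20.3 (-0.28 ± 0.08, adjusted p = 0.00732). Mrpl48, specific to mitochondria, ranged from 16.5 to 19.6 CPM against 18.1 to 24.04 (-0.21 ± 0.06, adjusted p = 0.00738). All 3 overlapped WT at the edges.

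In striatum of MctDio KO 2 members were lower and none higher, where 11.1% and 10.5% of all genes were, with a median of -0.03 against 0.01. As labelled 1 was lower. Mrpl20 ranged from 31.9 to 45.8 CPM against 38.9 to 51.1 in WT (-0.24 ± 0.07, adjusted p = 0.0111), and Mrpl43 fell by 0.17 ± 0.06 (adjusted p = 0.0323), with overlap in both. Untreated WTa was also lower than WT in Mrpl43 (-0.19, adjusted p = 0.03234), at a mean of 30.5 CPM beside 30.8 in MctDio KO. For Mrpl20 the difference of WTa from WT was -0.12 (adjusted p = 0.2868). The changes in MctDio KO did not differ between tissues for any member by the adjusted test (4.09% of all genes did; 5 members had an unadjusted p under 0.05, and DESeq2 called 0).

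MMI and MctDio KO shared the WT libraries as controls, so their changes against WT are not independent, and these groups were compared directly. In striatum 15 members were higher in MctDio KO than in MMI and none lower, where 6.8% of all genes were higher and 5.49% lower. The median difference was 0.11 against 0.01 over all genes, and as labelled 12 were higher. Mrpl12 led, at 21.8 to 25.8 CPM in MctDio KO against 17.0 to 21.7 in MMI, with no overlap (0.28 ± 0.06, adjusted p = 0.00156). Mrps12 followed, at 22.6 to 28.3 against 17.4 to 22.8 CPM (0.33 ± 0.07, adjusted p = 0.00184), and then Mrpl36, at 15.7 to 19.9 against 13.8 to 16.4 CPM (0.24 ± 0.06, adjusted p = 0.00660), each with some overlap. The count fell to 6 by library size alone, to 6 with no low-count filter and to 7 when only these groups were fitted. In cortex 2 members were higher, Mrpl20 (0.18 ± 0.06, adjusted p = 0.0430) and Mrps12 (0.30 ± 0.10, adjusted p = 0.0462), where 5.7% of all genes were higher and 5.29% lower, and as labelled 0 were called.

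The change in MctOatp KO against WTa was also set against the changes of the other models against WT. In cortex no member differed from MMI (3.23% of all genes did; 2 members had an unadjusted p under 0.05, and DESeq2 called 0). None differed from MctDio KO either (1.74% of all genes; 3 members and 0). In striatum none differed from MMI (6.69% of all genes did; 8 members had an unadjusted p under 0.05, and DESeq2 called 0). None differed there from MctDio KO (3.45% of all genes; 9 members, and DESeq2 called 1 lower). As labelled none of these comparisons called a member either. These tests do not show that the models act alike.

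**Figure D4:**
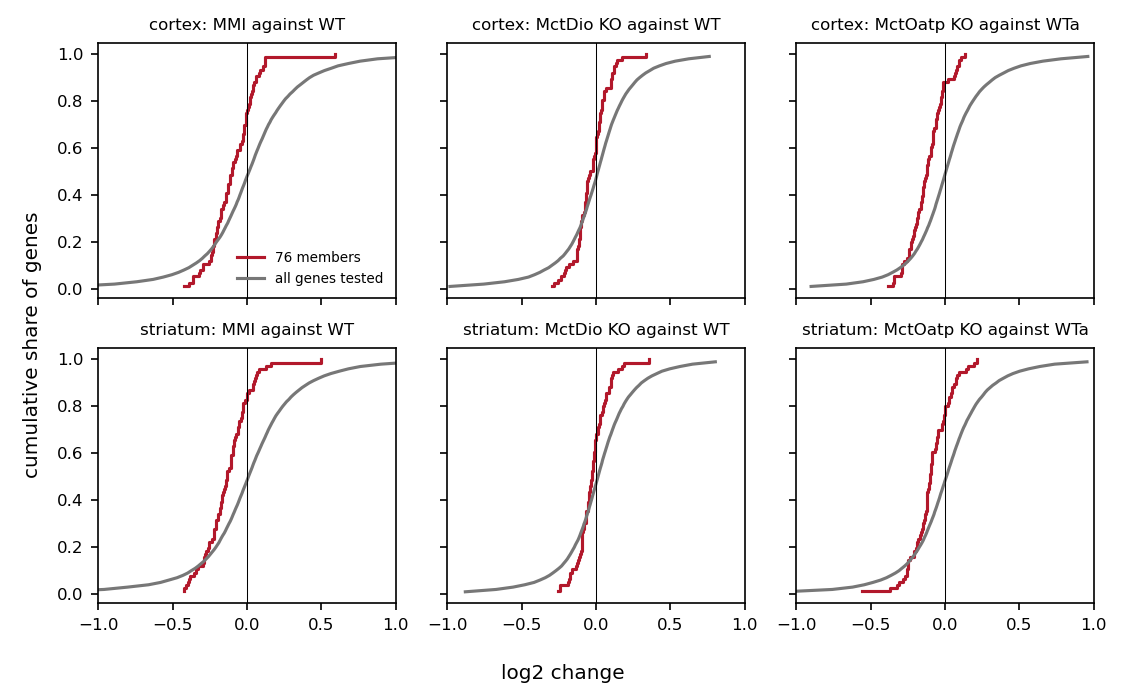
Cumulative share of the log2 change for the 76 members and for all genes tested, 1 panel for each model and tissue. The members' curve lies left of that of all genes in hypothyroid striatum (medians -0.13 and 0.01) and close to it in MctDio KO striatum (medians -0.03 and 0.01).

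The 6 comparisons of a model with its control are not independent. MMI and MctDio KO share the WT libraries of a tissue, and both tissues may come from the same mice. Over the 6 comparisons, 4 members were called lower in 5: Mrpl18, Mrpl20, Mrpl34 and Mrps21. Another 4 were lower in 4 comparisons, namely Mrpl15, Mrpl42, Mrps7 and Mrps35. A further 11 were lower in 3, 9 in 2 and 13 in 1, and 35 in none. Of the members 5.26% were lower in at least 5 comparisons and 53.9% in at least 1, and of the 15875 genes tested in both tissues 6% and 32.6% were. In at least 3 comparisons 25% of the members and 14.8% of these genes were lower. No member was lower in all 6, where 2.88% of these genes were. As labelled no member was lower in 4 or more, 1 was in 3, 9 in 2 and 22 in 1. Of the members 1.32% were then lower in at least 3 comparisons and 42.1% in at least 1. Of the 15764 genes tested as labelled 8.25% and 25.3% were, and 4.23% were lower in at least 4. In cortex Mrpl18, Mrpl34, Mrps21 and Mrps35 were lower in all 3 models, and in striatum Mrpl20 was.

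The WT and WTa groups differed in a few members. In cortex WTa was higher than WT in 4 members and lower in none, where 2.88% of all genes were higher and 3.83% lower, and as labelled 0 were called. These were Mrpl35 (0.23), Mrps25 (0.23), Mrps14 (0.21) and Mrps5 (0.14, adjusted p = 0.0496). In striatum 4 were higher and 1 lower, where 5.2% and 5.84% of all genes were, and as labelled 3 were higher. Mrps25 (0.31), Mrps5 (0.17), Mrpl45 (0.21) and Mrpl19 (0.21) were higher and Mrpl43 lower (-0.19). Mrps25 ranged from 22.2 to 30.1 CPM in cortex WT and from 30.5 to 34.1 in WTa, which did not overlap. The line cannot be told apart from anything else that differs between these groups.

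Between the untreated tissues, 21 members were higher in striatum and 14 higher in cortex, where 36.8% and 33.2% of all genes were. As labelled the counts were 10 and 8. The members' median was 0.04 against 0.02 over all genes. Mrpl24, with a bacterial homologue, ranged from 16.7 to 23.1 CPM in cortex WT and from 23.99 to 29.0 in striatum WT, without overlap (0.42 ± 0.05, adjusted p = 6.77e-11). Mrpl52 (0.36) and Mrpl47 (0.27) followed. Higher in cortex were Mrpl48 (-0.42 ± 0.05, adjusted p = 1.96e-12), Mrps27, specific to mitochondria (-0.39 ± 0.04, adjusted p = 1.47e-12), and Mrpl58, a hydrolase that frees stalled ribosomes (-0.29 ± 0.04, adjusted p = 2.14e-09). Mrps27 ranged from 16.5 to 22.1 CPM in cortex WT and from 13.4 to 16.3 in striatum WT. Of the paralogues, Mrps18a was higher in cortex (-0.18) and Mrps18c higher in striatum (0.26). The exons of Mrpl24, Mrps27 and Mrpl47 share 26.3%, 24.2% and 24.2% of their bases with another gene, which these counts cannot separate.

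**Figure D5:**
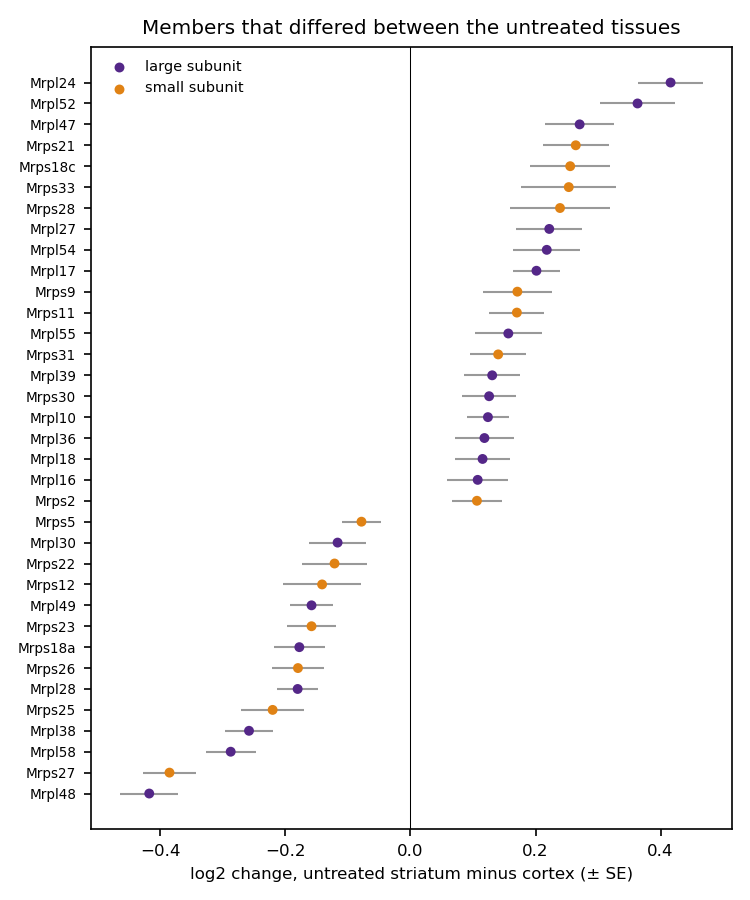
Log2 difference between untreated striatum and cortex (± SE) for the 35 members called; positive values are higher in striatum. Mrpl24 lies highest at 0.42 and Mrpl48 lowest at -0.42, with 21 members above 0 and 14 below.

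Many members have a gene on the other strand that starts close to their own start. A protein-coding neighbour on the other strand with its start within 1000 bases was annotated for 33 of the 76 members (43.4%, against 14.7% of 14297 protein-coding genes tested). Not all of these pairs point away from each other. In many, among them Mrpl36 with Ndufs6, Mrpl43 with Twnk and Mrpl18 with Tcp1, the annotated genes overlap at their starts. The share of 43.4% counts pairs of both kinds, so it is not a share of promoters in common. Of the neighbours tested in hypothyroid cortex, 6 of 31 were lower and 3 higher, with a median of 0.02. In striatum 8 of 32 were lower and 3 higher, with a median of 0.035. The members Mrpl46 and Mrps11 are each other's neighbour. Mrpl46 is therefore among the lower neighbours in cortex, and both are in striatum. The shares over all genes were 20.0% lower and 19.9% higher in cortex and 19.7% and 19.0% in striatum. As labelled, cortex had 1 neighbour called higher and none lower, and striatum 3 higher and 7 lower. In some pairs both genes were lower. Mrpl36 and Ndufs6, a subunit gene of complex I, changed by -0.41 and -0.43 in hypothyroid striatum (adjusted p of Ndufs6 = 5.58e-05) and by -0.24 and -0.23 in cortex (adjusted p of Ndufs6 = 0.0182). Mrpl47 and Ndufb5, another complex I gene, fell by 0.22 and 0.26 in striatum, although their exons overlap. In cortex they changed by -0.03 and -0.35 (adjusted p of Ndufb5 = 2.24e-07), and Mrpl47 was not called. In other pairs only the neighbour was called in both tissues. Mrpl41 and Pnpla7 changed by 0.12 and 0.51 in cortex and by 0.06 and 0.43 in striatum. Mrps27 and Ptcd2 changed by 0.04 and -0.18 in cortex and by -0.05 and -0.23 in striatum. Among the 47 members that share no exon base with another gene, 14 were lower and 1 higher in hypothyroid cortex, and 17 lower and 1 higher in striatum, beside the same shares over all genes. As labelled these counts were 1 and 1, and 16 and 1.

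The changes were also set against exon length. Over the 19 members with up to 1.5 kb of exon the median change was -0.17 in hypothyroid cortex and -0.21 in striatum, where protein-coding genes of that length had medians of -0.045 and -0.096. Over the 11 members of more than 6 kb the medians were -0.19 and -0.135, against 0.03 in both tissues for protein-coding genes of that length. In cortex the 27 members of 1.5 to 3 kb had a median of -0.10 against -0.011, and the 19 of 3 to 6 kb -0.027 against 0.019. In striatum these classes had -0.107 against -0.023 and -0.091 against 0.013. Within each of the 4 length classes the members' median was the lower in both tissues. The correlation of log2 exon length with the change over the 76 members, as a description of genes within 1 set of libraries, was 0.143 in cortex and 0.284 in striatum. The share of reads in no gene was also higher in MMI, at 9.33% to 10.8% against 8.13% to 9.89% in cortex WT and 9.28% to 10.4% against 8.003% to 8.757% in striatum WT, and its part in the result was not tested.

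Other genes of the mitochondrial translation system moved in both directions, beside shares over all genes of 20.0% lower and 19.9% higher in cortex and 19.7% and 19.0% in striatum. Of the 5 mitoribosomal proteins with other names, 1 was lower in hypothyroid cortex and 2 in striatum, none higher, and all 5 lay below 0. They were Aurkaip1 (-0.20 and -0.28), and in striatum also Chchd1 (-0.24); as labelled the counts were 0 and 2. Of 28 genes for assembly of the ribosome and modification of its RNA, 2 were higher and 2 lower in cortex, and 1 higher and 3 lower in striatum. Mettl17, an assembly factor, rose by 0.36 in cortex and 0.41 in striatum. Of 14 translation factors, 2 were higher and 2 lower in cortex, and 2 higher and 3 lower in striatum. Guf1, a ribosome-bound GTPase, rose by 0.59 and 0.60, while Gfm1, an elongation factor, fell by 0.28 and 0.19 and Tufm, the elongation factor that delivers transfer RNA, fell by 0.36 in striatum. Of 20 genes for aminoacyl-tRNA synthetases, cortex had 3 called higher and 1 lower, and striatum 4 higher and 1 lower. Of 21 genes for expression of mitochondrial DNA, 2 were higher and 2 lower in cortex and 2 higher and 3 lower in striatum. As labelled, the 4 lists from assembly onward together held 5 higher and 2 lower calls in cortex and 8 higher and 9 lower in striatum.

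The RNAs that the mitochondrion makes itself were called in striatum alone in MMI, a difference between tissues that was not tested. Of the 13 proteins encoded in mitochondrial DNA 7 passed the count filter. The others had too few counts to be tested, so the counts cover these RNAs only in part. Alignments at more than 1 place were not counted, and their part in this was not tested. Levels of the 7 are not given here. In hypothyroid striatum 5 of these 7 were lower, led by mt-Nd2 (-0.34) and mt-Nd1 (-0.28), and in cortex 0 were called, with a median of -0.14; as labelled the counts were the same. Neither of the 2 mitochondrial ribosomal RNAs was called in any model comparison. Among the 9 regulators of mitochondrial biogenesis, Esrra fell by 0.67 in hypothyroid cortex (adjusted p = 5.98e-14) and by 0.62 in striatum. Ppargc1a fell by 0.58 and 0.70. Nrf1 (-0.10 in cortex, -0.01 in striatum), Gabpa (0.10, 0.05) and Yy1 (0.07, 0.07), whose motifs were searched above, were not called in MMI. Esrra was also lower in MctDio KO (-0.38 in cortex, -0.31 in striatum) and in MctOatp KO (-0.49 and -0.21).

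Markers of the cell types in these tissues moved beside the members. All 6 oligodendrocyte markers were lower in hypothyroid cortex, their sum going from 8529 to 11240 CPM in WT to 4718 to 7171 in MMI, and 3 of 6 were lower in striatum. All 5 erythroid genes were lower in both tissues, in cortex from a sum of 117 to 241 CPM in WT to 51.6 to 67.2 in MMI. Of 8 markers of striatal projection neurons 7 were lower in hypothyroid striatum, their sum going from 5664 to 7654 CPM to 3743 to 4750. Of 6 microglial markers 5 were higher in each tissue, and of 6 endothelial markers 4 were higher in cortex and 3 in striatum. Oligodendrocyte markers were lower for 6 of 6 in both tissues of MctDio KO and of MctOatp KO as well, among them striatum of MctDio KO, where 2 members were called. No marker named here was at 0 in WT or MMI. As labelled, oligodendrocyte markers were lower for 4 of 6 in hypothyroid cortex and for 0 in striatum, for 6 and 0 in MctDio KO and for 0 and 5 in MctOatp KO, and striatal projection neuron markers for 2 of 8 in hypothyroid striatum. The part of these cell types in the members' changes was not tested.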

How the data were processed

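RNA was measured in 70 libraries, 7 for each of 5 groups in cerebral cortex and striatum. Per the labels' protocols, 500 ng of total RNA and an unstranded TruSeq kit gave single reads of 75 nt. The deposited unit is the raw count per gene, made by the authors. The submitters' processing notes name CASAVA, FastQC, Bowtie, TopHat, HTSeq, edgeR and GRCm38, with no versions. The 5 closing lines of each count file (reads in no gene and the like) were kept out of library sizes and tests. Gene names, exons and overlaps came from GENCODE and promoters from RefSeq.

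Counts were fitted in each tissue with edgeR 4.0.16 in R 4.3.3 (TMM scaling, filterByExpr, robust quasi-likelihood F test), the 5 conditions sharing 1 estimate of the spread. Comparisons of tissues used a fit over both tissues. Adjusted p-values are Benjamini-Hochberg values over all genes tested, and 0.05 was the threshold. Standard errors were taken as the absolute log2 change over the root of its F statistic. Levels are TMM-scaled CPM with SD over libraries. DESeq2 1.42.0 was an alternative, as were other scaling, filters, sets of samples and a replicate block. The tests were also run on simulated data with 1 common spread. Recovery was required there only of doublings or the reverse, which are larger than any change called in a member. Recovery of smaller changes is not given here. Figures and tables used Python 3.11.15.

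The fits reported first left out the libraries labelled cortex MctOatp KO 1 and 7 and striatum MctOatp KO 7. The members, lists and this choice were fixed with earlier results of these data known. Promoter windows, motifs, neighbours, exon-length classes and the place of Mrps36 in neither subunit were chosen after the files were seen. Named members were the 3 called with the smallest p in each direction of each comparison of a model with its control, the 3 with the largest tissue differences each way, the extremes per kilobase, the Mrps18 paralogues, members called in all models of a tissue or against the majority, and those called in an interaction; other names serve as examples. Labels do not say that libraries of a group come from separate litters, so p-values measure the spread between these libraries. No pair of libraries within a group agreed within sampling noise (210 pairs, lowest chi-square per degree of freedom 2.31). The second deleted gene of both lines is not reported here.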

Additional observations from a re-analysis of the deposited data

Results flagged for a closer look

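Of 300 sets of values (a named member or a summed level in 1 group) 20 held a library far from the others of its group, and chance flags about 1 in 20. In cortex WT these were replicate 4 for Mrpl10 (29.4 CPM) and Mrps27 (16.5 CPM), and replicate 6 for Mrpl34 (20.3 CPM). In cortex MMI it was replicate 7 for Mrps18b (5.24 CPM). In cortex MctDio KO they were replicate 6 for Mrpl28 (43.0 CPM), Mrpl3 (54.7 CPM) and Mrps5 (32.5 CPM), replicate 3 for Mrps12 (24.9 CPM) and replicate 2 for Mrps35 (9.11 CPM). In cortex WTa it was replicate 2 for Mrps5 (29.9 CPM), and in cortex MctOatp KO replicate 2 for Mrpl42 (17.0 CPM).

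In striatum WT replicate 1 stood apart for Mrps7 (47.2 CPM) and for the sum of the small subunit (571 CPM). In striatum MMI these were replicate 7 for Mrpl28 (25.9 CPM) and replicate 5 for Mrps12 (17.4 CPM). In striatum MctDio KO they were replicate 1 for Mrpl41 (49.9 CPM) and Mrps7 (44.7 CPM) and replicate 2 for Mrpl58 (26.9 CPM). In striatum WTa it was replicate 7 for Mrps21 (18.2 CPM), and in striatum MctOatp KO replicate 6 for Mrps21 (12.3 CPM).

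The change under MMI differed between striatum and cortex for Mrpl3 by 0.24 and for Mrpl43 by -0.31 on the log2 scale, by the test of the difference. The library labelled cortex MctOatp KO 1, used in no fit reported first, had members summing to 4190 CPM, above every cortex WTa library.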

How the results depend on the processing

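Counts of members called (higher and lower together) moved by more than 1.5 times as follows. With all libraries as labelled they were 2 in cortex MMI, 0 in cortex MctDio KO against WT and against MMI, 0 in cortex MctOatp KO, 0 in cortex WTa, 1 in striatum MctDio KO against WT, 3 in striatum WTa, 18 between untreated tissues and 1 for the tissue difference under MMI. Without only the libraries numbered 7 they were 3 in cortex MMI, 0 in cortex MctDio KO against WT and against MMI, 3 in cortex MctOatp KO, 0 in cortex WTa, 19 between untreated tissues and 1 for the tissue difference under MMI. By library size only they were 0 in cortex MctDio KO against MMI, 6 in cortex MctOatp KO, 17 in striatum MMI, 6 in striatum MctDio KO against MMI and 4 against WT, 9 in striatum MctOatp KO and 1 for its change minus that of MMI. With no low-count filter they were 0 in cortex MctDio KO against MMI, 2 in cortex WTa, 6 in striatum MctDio KO against MMI and 1 against WT, and 1 in striatum WTa. Fitting only the groups compared gave 1 in cortex MctDio KO against MMI, and 7 and 1 in striatum MctDio KO against MMI and WT. Upper quartile scaling gave 0 in cortex MctDio KO against MMI, 1 in cortex WTa and 3 in striatum WTa. DESeq2 gave 1 for the change in striatum MctOatp KO minus that in MctDio KO. Leaving out 1 library of cortex MctOatp KO gave 8 to 16. The shares of all genes called under these settings are not given beside the counts, and the cause of these shifts was not tested.

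The labels do not say that a number marks an animal, and not every pair of same-numbered libraries correlated above 0.1, so they were treated as sharing only a number: within a tissue 5 of 15 pairs in cortex and 4 of 16 in striatum did, and across tissues 28 of 33 did, 24 best with their own number, a hint of pairing from the data. The tissue comparisons reported first leave such a pairing out. With the replicate block the counts were 22 in cortex MMI, 2 in cortex MctDio KO against WT and 1 against MMI, and 14 in cortex MctOatp KO. In striatum they were 27 in MMI, 6 in MctDio KO against WT and 16 against MMI, and 18 in MctOatp KO. Both WTa comparisons had 3. Across tissues the block was condition and number together. It gave 38 between untreated tissues (23 higher in striatum and 15 lower), 2 for the tissue difference under MMI and 0 for those in MctDio KO and MctOatp KO. The common coefficient of variation across tissues was 0.0694 with this block and 0.0921 without it.

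Of the values of single named members under the alternatives, 359 kept their direction and side of the threshold, 63 lost the call and 9 reversed. In cortex MctOatp KO the changes became 0.0867 and 0.0917 for Mrpl18, 0.0386 and 0.0684 for Mrpl34 and 0.298 and 0.329 for Mrps21, as labelled and without only the libraries numbered 7. In MMI, Mrps18a in striatum became 0.0431 by library size only, and Mrps18c in cortex became -0.0012 with no low-count filter and -0.00017 with only the groups compared. Differences between members under about 0.1 on the log2 scale were near the SE at these depths.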
